A study of Ovis aries and Mus musculus with 10 samples.

Results

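The milk-producing mammary gland of the sheep was set against that of the CD1 mouse, an outbred laboratory strain, on 3 of the 10 miRNA arrays of the series. The 3 arrays were chosen by their titles and were sheep at day 60 of lactation, CD1 mouse at day 10 of lactation and CD1 mouse at day 2 of lactation. Each was 1 array of total RNA from mammary gland of animals given no treatment, and the number of animals behind an array is not given in the sources used here. The other 7 arrays covered sheep in cycle (1), sheep in gestation (3), mouse in gestation (2) and virgin mouse (1), and entered only the model and the comparison with gestation. All 3 lactation arrays lay on 1 slide.

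The array carried probes for 567 mouse miRNAs, and all 567 were examined. Mature miRNAs are short RNAs that guide Argonaute proteins to messenger RNAs, mostly by pairing of their seed near the 5′ end, and miRNAs with the same seed form a family. In the lactating gland most of the RNA comes from secretory epithelium, which releases many miRNAs into milk inside vesicles and fat globules. The miR-200 family keeps epithelial cells epithelial by repressing the transcription factors Zeb1 and Zeb2, let-7 miRNAs accompany differentiation, and miR-148a is among the most abundant miRNAs of milk.

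Probes were designed for mouse, so a sheep miRNA that differs from the mouse one in sequence or length can bind less well. Abundance and probe match cannot be told apart in a comparison of the 2 species, nor can species and day of lactation, since the sheep day has no mouse counterpart. In whole tissue, fewer cells of a type and less RNA per cell cannot be told apart either. Members of a family that differ by few bases can share signal on their probes, so values of single let-7, miR-23, miR-29, miR-30 and miR-181 members are uncertain to that extent.

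Signal was brighter on the sheep array before scaling. Over the 94 miRNAs that every one of the 10 arrays detected, the 75th percentile of signal was 788 units in sheep, 246 at mouse day 10 and 394 at mouse day 2. Each array was divided by this percentile, and the result is called scaled signal throughout, so that a value of 1 equals the percentile. Values under 0.0290 were set to that floor before logarithms were taken. No spot was saturated on any array.

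The lactating gland yielded 156 detected miRNAs in sheep, 125 at mouse day 10 and 144 at mouse day 2. Detection reached lower scaled signal on the sheep array, so these counts and their overlaps do not compare the sizes of the repertoires. The lowest scaled probe signal well above background was 0.0214 in sheep, 0.0684 at mouse day 10 and 0.0479 at mouse day 2. Of the detected miRNAs, 56 in sheep, 7 at mouse day 10 and 20 at mouse day 2 lay at the floor. A total of 181 were detected on at least 1 of the 3 arrays and 106 on all of them. The shared 106 made up 67.9% of the sheep list, 84.8% of the mouse day 10 list and 73.6% of the mouse day 2 list. The 2 mouse days had 120 miRNAs in common, which were 96.0% of the day 10 list and 83.3% of the day 2 list. Another 16 miRNAs were detected in sheep and at mouse day 2 only, and 2 in sheep and at mouse day 10 only.

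A few miRNAs held most of the signal in both species. The 10 brightest accounted for 50.9% of the summed signal in sheep, 54.4% at mouse day 10 and 51.4% at mouse day 2, and the 30 brightest for 82.1%, 82.4% and 79.1% in the same order of arrays. A rank by signal also depends on how well each probe binds, so ranks below describe signal on this array and not molar amounts. The brightest on all 3 arrays was miR-720, which has since been withdrawn from the miRNA registry as a probable tRNA fragment. It held 10.5% of the signal in sheep, 21.5% at mouse day 10 and 17.9% at mouse day 2.

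Among the 30 brightest on each array, 23 miRNAs were shared by all 3. The sheep list shared 23 with mouse day 10 and 24 with mouse day 2, whereas the mouse days shared 27 with each other. Of the 10 brightest, 7 were the same on all 3 arrays, namely miR-720, let-7a, let-7b, let-7f, miR-148a, miR-200b and miR-200c. let-7b was second on all 3 arrays, with a scaled signal of 6.87 in sheep, 4.63 at mouse day 10 and 4.82 at mouse day 2. let-7a had 6.48, 4.11 and 3.68 on the same arrays and ranked 3 in sheep. Both let-7 miRNAs were brightest in sheep, but neither was called, with log2 differences of 0.54 ± 0.28 and 0.74 ± 0.45 (limma standard error) and adjusted p of 0.349 and 0.448.

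**Figure D1:**
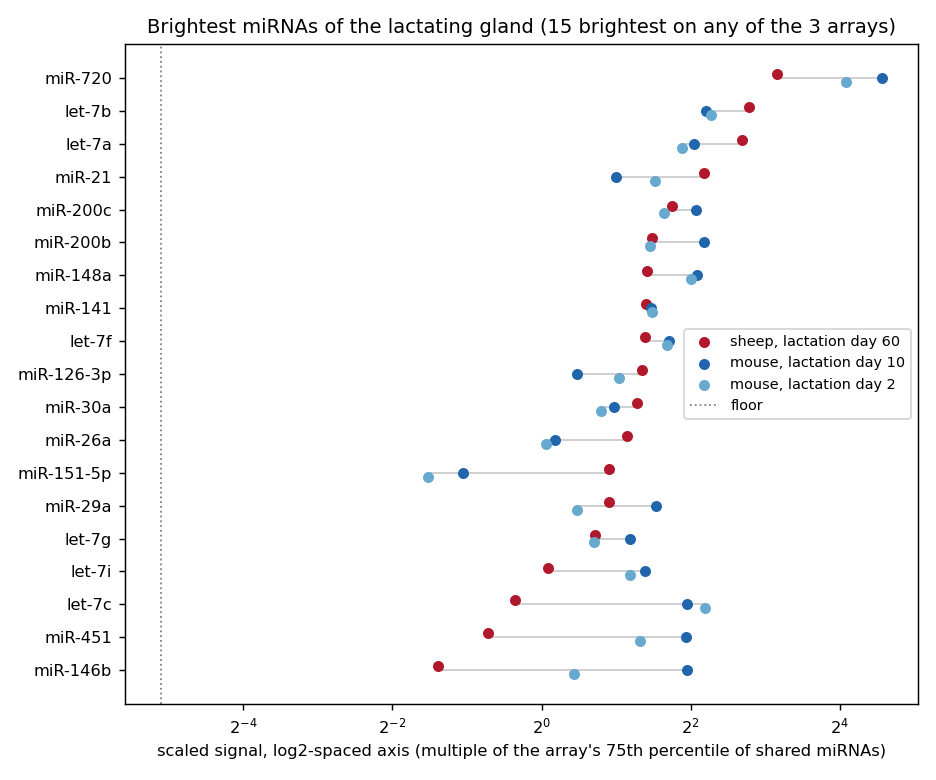
Scaled signal (log2-spaced axis, multiples of the array's 75th percentile of shared miRNAs) of the miRNAs among the 15 brightest on any lactation array, in order of their rank in sheep; each point is 1 array and the dotted line is the floor. Most points of a row lie close together, while miR-151-5p is far brighter in sheep and let-7c, miR-451 and miR-146b are far dimmer in sheep than on both mouse days.

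The epithelial miR-200 family was bright in both species. miR-200c had a scaled signal of 3.37 in sheep, 4.22 at mouse day 10 and 3.12 at mouse day 2, and ranked 5, 5 and 7. miR-200b had 2.78 in sheep, 4.54 at mouse day 10 and 2.73 at mouse day 2. miR-141 had 2.63 in sheep, 2.76 at mouse day 10 and 2.79 at mouse day 2. For these members the sheep value lay within or next to the range of the mouse days. miR-148a, an inhibitor of DNA methyltransferase mRNAs, had 2.67 in sheep, 4.26 at mouse day 10 and 4.01 at mouse day 2, a log2 difference of -0.63 ± 1.37 that was not called (adjusted p = 0.994).

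Other bright miRNAs kept their place less closely. miR-21, found in most tissues, ranked 4 in sheep, 15 at mouse day 10 and 8 at mouse day 2, with scaled signals of 4.55, 2.00 and 2.88. miR-126-3p, the miRNA of endothelium encoded in Egfl7, ranked 10, 22 and 13 in the same order, with 2.55, 1.39 and 2.05. Both were highest in sheep without being called (adjusted p = 0.352 and 0.345). miR-24 held rank 24 on all 3 arrays, with 1.00 in sheep, 1.02 at mouse day 10 and 1.02 at mouse day 2.

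The miRNAs that entered the 30 brightest in sheep and on neither mouse day were miR-151-5p, miR-20a, miR-23a, miR-23b, miR-29c and miR-497. Those among the 30 brightest on both mouse days and not in sheep were let-7d, miR-146b, miR-429 and miR-451. miR-146b, which damps signalling from Toll-like receptors, ranked 8 at mouse day 10 and 19 at mouse day 2 but 41 in sheep. Its scaled signal was 0.382 in sheep, 3.87 at mouse day 10 and 1.35 at mouse day 2. The mouse days themselves were far apart, and its log2 difference of -2.58 ± 1.14 was not called (adjusted p = 0.262).

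Over the 106 miRNAs detected on all 3 arrays, the Spearman correlation of signal was 0.753 between sheep and mouse day 10, 0.770 between sheep and mouse day 2 and 0.950 between the mouse days. The corresponding Pearson correlations of log2 signal were 0.775, 0.788 and 0.956. These are descriptions across miRNAs, which are not independent and share their probes between arrays. The median absolute log2 difference was 0.96 between sheep and mouse day 10, 0.65 between sheep and mouse day 2 and 0.49 between the mouse days. Sheep lay within 2-fold of mouse day 10 for 57 miRNAs and of mouse day 2 for 70, whereas the mouse days lay within 2-fold of each other for 94. For 49 miRNAs sheep lay within 2-fold of both mouse days.

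With 1 sheep array against 2 mouse arrays an exact permutation test cannot give a p below 0.333. Differences were therefore judged in 2 ways. A miRNA was counted as 4-fold different if the sheep value was at least 4 times above, or 4 times below, each mouse day. Separately, a limma model with a mean for each species and stage class was fitted to 185 miRNAs over all 10 arrays, with 4 residual degrees of freedom. The p-values then measure the spread between days of a stage class, and the lone sheep array is assumed to vary like the other groups.

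Sheep and mouse lactating gland differed by 4-fold on both mouse days for 21 miRNAs, 11.6% of the 181 detected on any of the 3 arrays. Of these, 4 were higher in sheep (2.21%) and 17 lower in sheep (9.39%). Against mouse day 10 alone 6 were 4-fold higher in sheep (3.31%) and 23 lower (12.7%), and against mouse day 2 alone 6 were higher (3.31%) and 19 lower (10.5%). The mouse days differed from each other by 4-fold for 1 miRNA (0.552%), miR-375. This miRNA, first described in pancreatic islets, had 0.510 in sheep, 0.408 at mouse day 10 and 0.0699 at mouse day 2. Of any size, the sheep value was above both mouse days for 54 of the 185 tested miRNAs (29.2%) and below both for 62 (33.5%). Of the 185, 40 lay at the floor on all 3 lactation arrays and could be neither.

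limma called 28 of the 185 tested miRNAs at an adjusted p under 0.05 (15.1%), of which 10 were higher in sheep (5.41%) and 18 lower in sheep (9.73%). At an unadjusted p under 0.05 there were 47. The sheep value of all 28 lay outside both mouse days. Of the 21 miRNAs with a 4-fold difference, 13 were called. The count fell to 12 without the sheep array of gestation day 14 and to 16 without that of gestation day 64, arrays that enter this difference only through the spread.

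The split by direction depended on how the arrays were scaled. With the 75th percentile over all miRNAs there were 29 calls, 19 higher and 10 lower in sheep, and with quantile normalization 30, 17 higher and 13 lower. Without scaling 4 remained, 3 higher and 1 lower. The median of the 106 shared miRNAs moved up in sheep by 1.21 without scaling, by 0.84 with the percentile over all miRNAs, by 0.44 in the authors' value table and by 0.17 with quantile normalization, all on the log2 scale. Of the miRNAs below, let-7i and miR-202-3p changed direction without scaling and miR-28 with normexp background correction, and the others called kept their direction or came to 0.

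**Figure D2:**
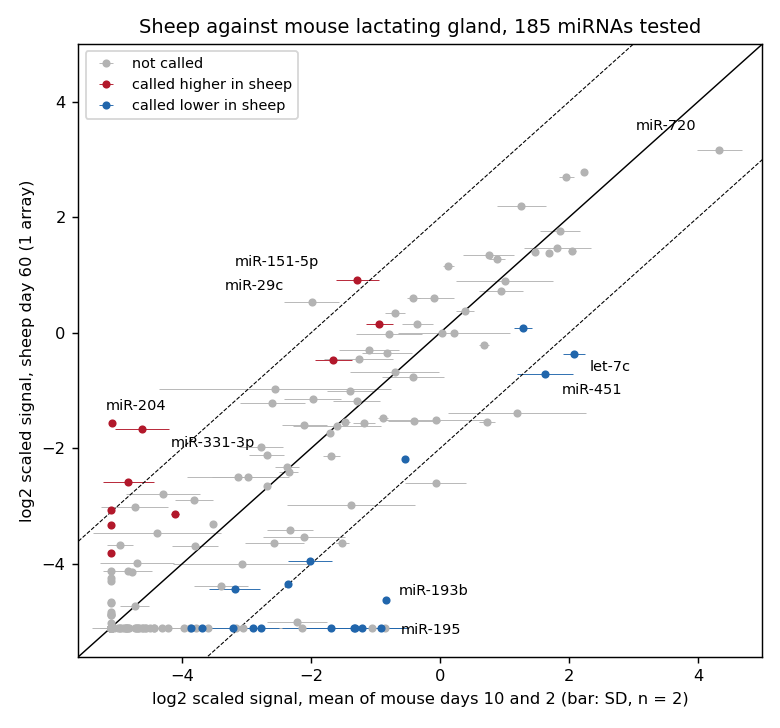
log2 scaled signal in sheep (y axis, 1 array) against the mean of mouse days 10 and 2 (x axis, bars show the SD of n = 2) for the 185 tested miRNAs; the solid line marks equality and dashed lines a 4-fold difference. miR-204 and miR-331-3p lie above the upper dashed line, and a row of miRNAs such as miR-195 lies at the floor in sheep while bright in mouse.

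miR-195 was called lower in sheep. It belongs to the miR-15/16 seed family, whose members restrain the cell cycle by repressing cyclins. Its scaled signal was 0.0207 in sheep, 0.467 at mouse day 10 and 0.606 at mouse day 2, so that sheep was below the floor and both mouse days far above it. The log2 difference was -4.20 ± 0.45 (limma standard error, adjusted p = 0.00832), and with a floor 4 times lower it was -4.68. Where sheep lay below the floor, as here, a difference is taken against the floor and its size depends on it, so such differences have no order among themselves. miR-16 of the same family was not detected in sheep, at 0.000522, and had 0.614 at mouse day 10 and 0.303 at mouse day 2. Mouse was at least 14.9-fold brighter, and limma gave -3.90 ± 0.46 (adjusted p = 0.0095). Such bounds set the brighter group's mean against the highest of the floor, the dim probe's own signal and the lowest probe signal well above background on each array of the dimmer group.

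miR-322, the mouse counterpart of miR-424 and also called, had 0.00875 in sheep, 0.275 at mouse day 10 and 0.573 at mouse day 2. It was below the floor in sheep and at least 13.7-fold brighter in mouse (adjusted p = 0.0226). The family was not lower as a whole. miR-15a had 1.11 in sheep, 0.880 at mouse day 10 and 0.695 at mouse day 2, and miR-497 had 0.817, 0.372 and 0.587 on the same arrays. Both were highest in sheep and neither was called. Of the 6 tested members 3 were called lower, where 9.73% of all tested miRNAs were, and none higher, and the median difference was -2.45, against 0 over all tested miRNAs and -0.15 over the 145 that were above the floor on a lactation array. The median was below 0 under all 8 other ways of making the values.

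let-7c and miR-451 were the 2 called miRNAs that were bright on all 3 arrays and over 4-fold lower in sheep. let-7c had 0.779 in sheep, 3.87 at mouse day 10 and 4.57 at mouse day 2, and ranked 30, 7 and 3. Its log2 difference was -2.43 ± 0.16 (adjusted p = 0.00352), and its 2 probes gave -2.91 and -2.36. miR-451, the red cell miRNA that Argonaute 2 rather than Dicer cuts, had 0.609 in sheep, 3.83 at mouse day 10 and 2.51 at mouse day 2. Its log2 difference was -2.35 ± 0.28 (adjusted p = 0.0095), and its 2 probes gave -2.37 and -2.34. Both probes of each miRNA therefore pointed the same way. No probe of the 28 called miRNAs pointed against its call, but in several a single probe held most of the difference. The 2 probes gave 0.195 and 2.373 for miR-423-5p, 0.293 and 2.492 for miR-185 and 1.581 and 3.77 for miR-204. On the lower side they gave -2.987 and -0.427 for miR-183, -2.615 and -0.422 for miR-345-5p and -1.831 and -0.259 for miR-362-3p.

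Several miRNAs known from particular cell states were also lower in sheep. miR-193b, which takes part in brown fat differentiation, had 0.0404 in sheep, 0.559 at mouse day 10 and 0.560 at mouse day 2, a log2 difference of -3.79 ± 0.72 (adjusted p = 0.0294). miR-365, encoded beside a miR-193 gene, was lower by the same test with 0.0488 in sheep, 0.195 at mouse day 10 and 0.196 at mouse day 2. miR-210, induced by low oxygen, had 0.0136 in sheep, 0.448 at mouse day 10 and 0.213 at mouse day 2, with a log2 difference of -3.42 ± 0.57 (adjusted p = 0.0226) that is taken against the floor and was -4.51 with a floor 4 times lower. In each case both mouse days were above the sheep value.

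miR-181b, studied in lymphocyte development, had 0.0140 in sheep, 0.545 at mouse day 10 and 0.293 at mouse day 2, with a log2 difference of -3.79 ± 0.83 (adjusted p = 0.044), which was -4.84 with a floor 4 times lower. miR-223, a miRNA of myeloid cells, had 0.0247 in sheep, 0.126 at mouse day 10 and 0.167 at mouse day 2 (adjusted p = 0.044), and was called in 8 of 24 other settings. Both were below the floor in sheep. miR-183, from a cluster studied in sensory epithelia, was not detected in sheep and had 0.128 at mouse day 10 and 0.142 at mouse day 2, which made mouse at least 4.65-fold brighter (adjusted p = 0.00832). miR-96 of the same cluster was below the floor in sheep, with 0.0145, and had 0.664 at mouse day 10 and 0.466 at mouse day 2. It missed the threshold, at -4.26 ± 1.00 against the floor (adjusted p = 0.0546).

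The remaining called miRNAs lower in sheep were nearer to the mouse values. miR-30c had 0.221 in sheep, 0.682 at mouse day 10 and 0.695 at mouse day 2, with a log2 difference of -1.64 ± 0.35. let-7i had 1.06 in sheep, 2.61 at mouse day 10 and 2.28 at mouse day 2, with a difference of -1.20 ± 0.22 that turned to 0.14 without scaling. miR-125a-5p, a mammalian relative of the worm lin-4 miRNA, differed by -1.93 ± 0.33 and miR-202-3p, best known from gonads, by -1.25 ± 0.25, which turned to 0.09 without scaling. miR-345-5p, miR-500 and miR-362-3p were not detected in sheep and were at least 3.73-fold, 2.68-fold and 2.38-fold brighter in mouse. miR-500 and miR-362-3p are encoded together in an intron of Clcn5 on the X chromosome, and 1 of the 2 miR-500 probes showed no difference. Of the 18 miRNAs called lower, 10 lay at the floor in sheep. Over 24 other settings miR-202-3p kept its call in 9, and miR-30c and miR-125a-5p in 10 each.

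**Figure D3:**
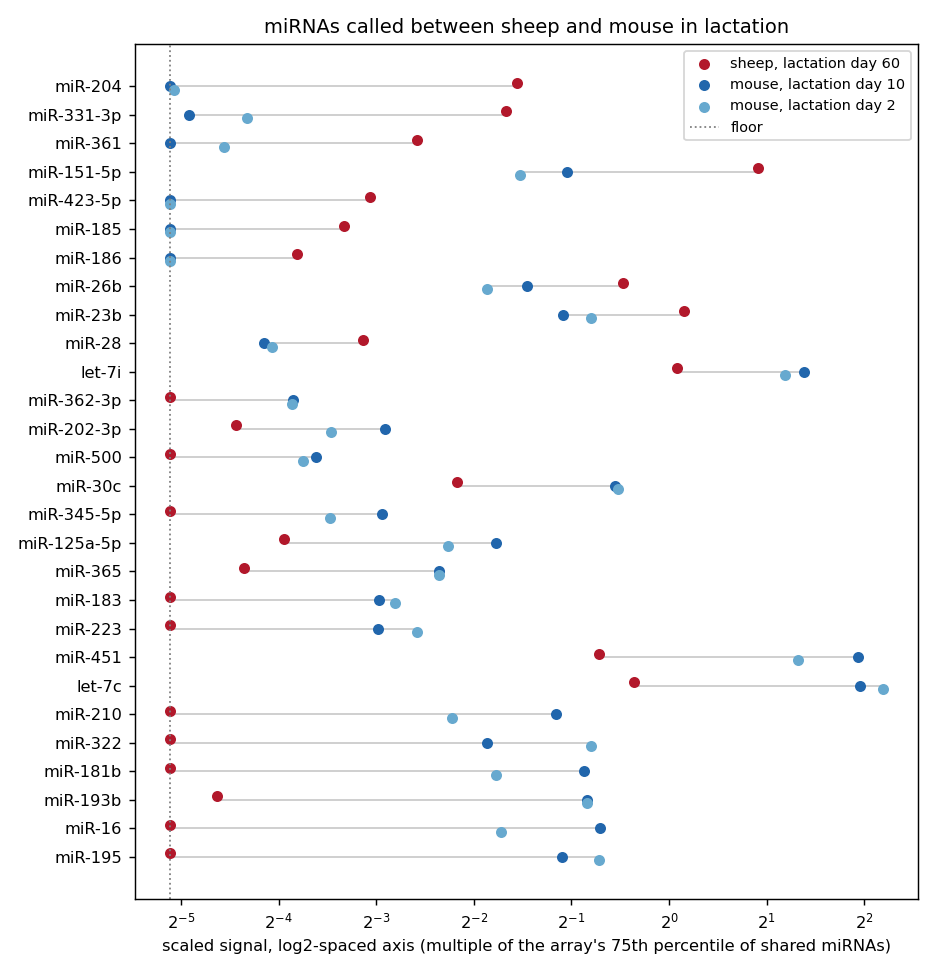
Scaled signal (log2-spaced axis, multiples of the array's 75th percentile of shared miRNAs) of the 28 miRNAs called by limma, from the most positive difference at the top to the most negative at the bottom; each point is 1 array and the dotted line is the floor. The sheep point lies to the right of both mouse points in the upper 10 rows and to the left of both in the lower 18 rows.

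miR-204 was called higher in sheep. This miRNA, encoded within Trpm3, is prominent in the eye's pigment epithelium and restrains Runx2. Its scaled signal was 0.340 in sheep, 0.0193 at mouse day 10 and 0.0297 at mouse day 2, so that it was bright in sheep and near the floor on both mouse days. The log2 difference was 3.53 ± 0.36 (adjusted p = 0.00832) and sheep was at least 5.93-fold brighter. miR-331-3p, which represses ERBB2 in human cells, had 0.314 in sheep, 0.0332 at mouse day 10 and 0.04995 at mouse day 2. Its log2 difference was 2.95 ± 0.36 (adjusted p = 0.0095).

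miR-151-5p, from an intron of the focal adhesion kinase gene Ptk2, was the brightest miRNA called higher in sheep. It had 1.88 in sheep, 0.483 at mouse day 10 and 0.348 at mouse day 2, and ranked 13, 41 and 49. The log2 difference was 2.20 ± 0.40 (adjusted p = 0.0255), and its 2 probes gave 2.15 and 2.29. miR-361, from an intron of Chm, had 0.166 in sheep, 0.0204 at mouse day 10 and 0.0425 at mouse day 2 (log2 difference 2.24 ± 0.34, adjusted p = 0.018). It came to 0 with normexp, where all 3 arrays lay at the floor.

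miR-26b, which like miR-26a has Ezh2 among its targets, had 0.722 in sheep, 0.365 at mouse day 10 and 0.275 at mouse day 2. miR-23b had 1.11 in sheep, 0.472 at mouse day 10 and 0.577 at mouse day 2. miR-28, from an intron of Lpp, had 0.114 in sheep, 0.0564 at mouse day 10 and 0.0597 at mouse day 2, a difference of 0.97 ± 0.12 that turned to -0.06 with normexp. These 3 were about 2-fold brighter in sheep than on each mouse day. miR-423-5p, miR-185 and miR-186 were at the floor on both mouse days, and sheep was at least 2.09-fold, 1.73-fold and 1.24-fold brighter. miR-423-5p was counted as 4-fold higher only against the floor, since its bound does not reach 4-fold. Over the 10 higher miRNAs the log2 differences ran from 0.97 to 3.53, and over the 18 lower ones from -4.20 to -1.20, with values under the floor set to it.

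Among the 21 miRNAs with a 4-fold difference, those not called were miR-96, miR-709, miR-378, miR-199b*, miR-429, let-7d and miR-494, all lower in sheep, and miR-29c, higher in sheep. miR-29c, one of a family that represses collagens, had 1.45 in sheep, 0.310 at mouse day 10 and 0.204 at mouse day 2. Its log2 difference was 2.53 ± 0.93 (adjusted p = 0.173). miR-378, encoded in the coactivator gene Ppargc1b, had 0.0155 in sheep, 0.233 at mouse day 10 and 0.223 at mouse day 2 (adjusted p = 0.0921). let-7d had 0.344 in sheep, 1.75 at mouse day 10 and 1.56 at mouse day 2 (adjusted p = 0.0786). None of the 21 turned direction against both mouse days under 8 other ways of making the values.

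Of the 32 miRNAs detected in sheep and on neither mouse day, most were dim, with a median scaled signal of 0.0156, below the floor. The 8 brightest were miR-185, miR-186, miR-125a-3p, miR-29c*, miR-127, miR-379, miR-224 and miR-705. They had scaled signals between 0.0337 and 0.0993, and miR-185 and miR-186 were called. Of the 32, 22 were detected on at least 1 mouse array of gestation or of virgin gland.

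The 14 miRNAs detected on both mouse days and not in sheep had medians of 0.074 at mouse day 10 and 0.063 at mouse day 2. The lowest scaled probe signal well above background was 0.0214 in sheep, 0.0684 at mouse day 10 and 0.0479 at mouse day 2. Dimmer miRNAs could thus be detected in sheep, and the medians of the 2 lists are not on equal terms. The 8 brightest of the 14 were miR-16, miR-689, miR-345-5p, miR-183, miR-181c, miR-500, miR-144 and miR-362-3p. Of the 14, 9 were detected on another sheep array. A miRNA not detected had only a bound.

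Families and groups of miRNAs differed in how they compared between the species, and the 28 calls (15.1% of those tested) are the background for the counts below. In the miR-200 family no member was called, the median difference was -0.22 and the summed scaled signal was 9.95 in sheep, 14.1 at mouse day 10 and 10.6 at mouse day 2. The family median turned above 0 without scaling (1.12, against a shift of 1.21 of all shared miRNAs), with the percentile over all miRNAs and in the authors' value table. miR-429 stood apart from the other 4 members, with 0.165 in sheep, 0.757 at mouse day 10 and 1.20 at mouse day 2. Among 9 other miRNAs of epithelia, miR-193b and miR-183 were called lower. The lists overlap, and miR-193b is counted again below among miRNAs linked to adipocytes and metabolism. miR-205, a marker of basal mammary epithelium, had 0.230 in sheep, 0.136 at mouse day 10 and 0.177 at mouse day 2 and was not called.

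Milk-abundant miRNAs showed little difference as a group. All 24 were detected in sheep, 22 at mouse day 10 and 23 at mouse day 2, and the summed scaled signal was 44.1, 45.6 and 36.9. The median difference was -0.03, 1 member was called higher (miR-186) and none lower. The median turned above 0 without scaling (1.28), with the percentile over all miRNAs, in the authors' value table and with quantile normalization, and stayed within 0.07 of the shift of all shared miRNAs in each.

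In the let-7 family 2 of 9 members were called, both lower (let-7c and let-7i), and the median difference was -0.31, which turned above 0 without scaling (1.04), with the percentile over all miRNAs and in the authors' value table. The family's summed scaled signal was close on the 3 arrays, at 20.2 in sheep, 23.2 at mouse day 10 and 22.3 at mouse day 2. let-7a and let-7b were brighter in sheep, let-7c and let-7d dimmer, and the other members lay between. In the miR-30 family miR-30c was called lower among 5 members, with a median of -0.06 that turned above 0 without scaling (1.28), with the percentile over all miRNAs, in the authors' value table and with quantile normalization. In the miR-29 family none of 3 members was called, with a median of 0.03 that turned below 0 with the percentile over miRNAs shared in lactation (-0.05), with normexp (-0.02) and with the brightest probe. The family of miR-148a, miR-148b and miR-152 had none called and a median of -0.63, which turned above 0 without scaling (0.71) and with the percentile over all miRNAs.

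Relative to the shift of all shared miRNAs, the medians of the miR-200, let-7 and miR-148a families stayed negative under every scaling. These medians turned positive only where that shift was not taken off. Several other groups also kept the sign of their median relative to the shift under every scaling. The 2 miR-26 members had a median of 1.11, with miR-26b called higher. The miR-23/27/24 clusters, which take part in vascular and metabolic regulation, had a median of 1.02 over 5 members, with miR-23b called higher, and a summed scaled signal of 5.24 in sheep, 2.97 at mouse day 10 and 3.33 at mouse day 2. For the growth-promoting miR-17-92 cluster and its paralogs the median was 0.48 over 9 tested members, and none was called. Of the 9, 7 were above both mouse days, where 29.2% of all tested miRNAs were. Among the 145 tested miRNAs above the floor on a lactation array, as all 9 were, it was 54. The miR-99/100 and miR-125 group had a median of 0.77 over 5 members, with miR-125a-5p called lower and none higher.

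On the lower side, the miR-181 family had a median of -1.46, with miR-181b called lower and all 4 members below both mouse days. miRNAs linked to adipocytes and metabolism had a median of -1.45 over 6 members, with miR-193b and miR-365 called lower and 5 of 6 below both mouse days. Of all tested miRNAs 33.5% were below both mouse days, and of the 145 above the floor on a lactation array, as all these members were, 62 were. These medians also stayed below 0 without scaling, at -0.54 and -0.11.

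**Figure D4:**
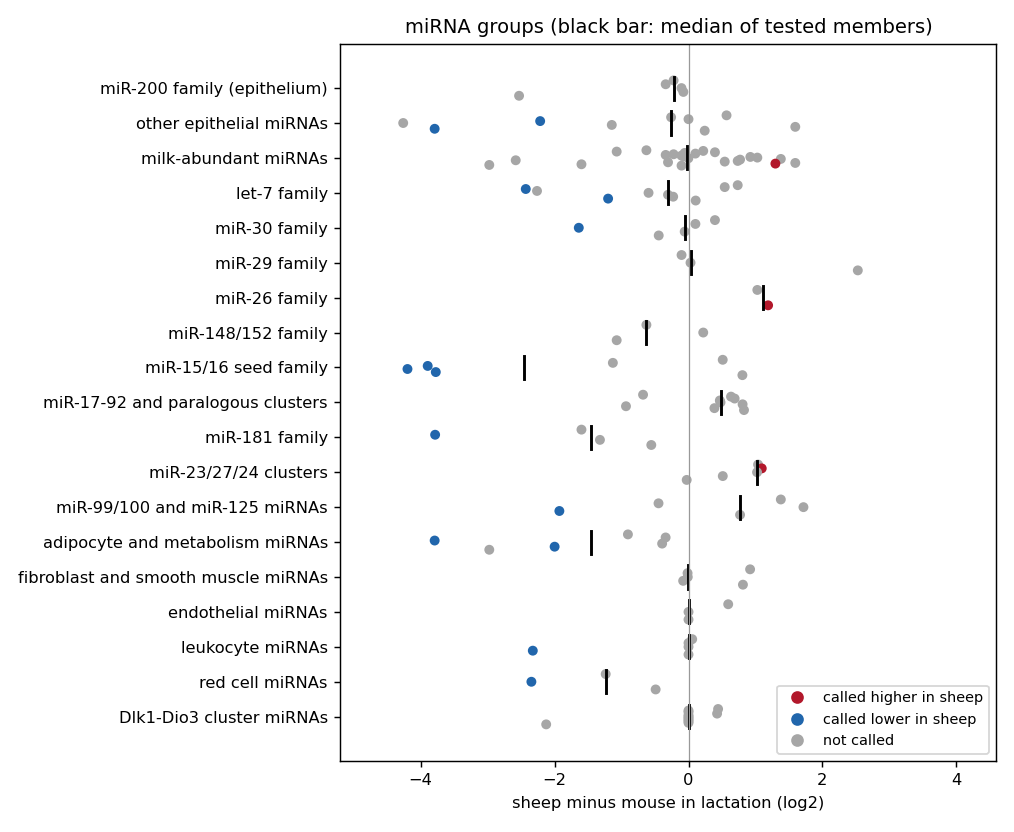
log2 difference of sheep minus the mean of mouse days 10 and 2 for each tested member of 19 groups of miRNAs (one point per miRNA, the black bar is the median of the group). Most groups straddle 0; the miR-15/16 seed family spans from -4.20 to 0.80, and both miR-26 members lie above 1.

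Markers of other cells moved in part with the species. The 3 red cell miRNAs (miR-451, miR-144, miR-486) had a summed scaled signal of 0.620 in sheep, 3.96 at mouse day 10 and 2.60 at mouse day 2, and miR-144 and miR-486 were not detected in sheep. The 6 leukocyte miRNAs summed to 0.238 in sheep, 0.305 at mouse day 10 and 0.418 at mouse day 2, with miR-223 called lower, and 2, 2 and 3 of them were detected. miR-142-3p, the general blood cell marker among them, had 0.200 in sheep, 0.176 at mouse day 10 and 0.211 at mouse day 2. The part of blood cells in the other differences was not tested.

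Fibroblast and smooth muscle miRNAs summed to 0.832 in sheep, 0.659 at mouse day 10 and 0.938 at mouse day 2, with none of 5 called and a median of -0.01 that turned above 0 without scaling (1.33) and in 4 other settings. Endothelial miRNAs summed to 2.59, 1.46 and 2.11 on the same arrays, with none of 3 called. Striated muscle miRNAs were at the floor on all 3 arrays, at sums of 0.0270, 0.0201 and 0.0351. The liver miRNA miR-122 was not detected on any of the 3, and of 5 neural miRNAs only miR-128 was detected, in sheep, at 0.0205. Of 27 miRNAs of the imprinted Dlk1-Dio3 region 11 were tested and none was called, with sums of 0.198, 0.348 and 0.409. Most of both mouse sums came from miR-494, with 0.0802 in sheep, 0.335 at mouse day 10 and 0.367 at mouse day 2. Detected members numbered 5 in sheep and 1 on each mouse day, and 2 lay above both mouse days against 1 below both.

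miRNAs encoded close together are often cut from 1 transcript, so their differences were compared along the mouse genome (mm9 positions of the probe targets, per the file headers). Each miRNA was placed only by the position printed for its probes, and further copies elsewhere in the genome were not looked for. A gap between neighbours is therefore not shown to lie within 1 transcript. Within 10 kb of each other lay 68 miRNAs in 25 clusters. They gave 58 pairs, leaving out 2 arms of one hairpin (star forms and targets under 50 bases apart) and pairs more than 10 kb apart. Pairs share members and so are not independent, and no such gap was taken for miRNAs further apart. The median gap between the differences of a pair was 1.09 on the log2 scale. In 14 pairs it was at least 2, with miR-429 in several of them and sheep at the floor in others.

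Among these were miR-497 and miR-195 on chromosome 11 (chr11:70048234-70048253 and chr11:70048566-70048584), 312 bases apart. Their log2 differences were 0.80 and -4.20, the second against the floor. miR-15a and miR-16 on chromosome 14 (chr14:62250912-62250933 and chr14:62250773-62250790), 121 bases apart, differed by 0.51 and -3.90, the second again against the floor. In both pairs a neighbour that shares the seed was highest in sheep while the other was at the floor there. let-7b and let-7c on chromosome 15 (chr15:85537758-85537776 and chr15:85537049-85537067) lay 690 bases apart, with differences of 0.54 and -2.43. let-7a and let-7d on chromosome 13, 2142 bases apart, had 0.74 and -2.26.

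miR-23a and miR-27a on chromosome 8 differed by 1.04 and 1.02, miR-200c and miR-141 on chromosome 6 by -0.10 and -0.08, and miR-500 and miR-362-3p on the X chromosome by -1.42 and -1.25. In the miR-183 cluster on chromosome 6 all 3 members were lower than on both mouse days, with -2.22 for miR-183, -4.26 for miR-96 and -1.15 for miR-182, of which miR-183 was called. The gap between miR-96 and miR-182 was 3.12. Sheep lay below the floor for all 3, and for miR-500 and miR-362-3p. Their differences are therefore taken against the floor, and the gaps between them follow the mouse signal alone. miR-19a, miR-20a, miR-19b and miR-92a of the miR-17-92 cluster on chromosome 14 lay between 0.47 and 0.81. Their neighbour miR-18a had -0.68, with sheep and mouse day 10 below the floor.

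Whether the species difference was particular to lactation was asked by setting it against the same difference in gestation. The gestation means come from other arrays, while the scaling, the floor and limma's estimate of spread draw on all 10. All 28 called miRNAs had the same sign in gestation. Over the 130 tested miRNAs with a difference on both sides, 109 had the same sign (83.8%). For 21 of the 28 the gestation difference was at least 1 on the log2 scale, a count not made over all tested miRNAs. limma called 0 miRNAs (0.0%) in the test of the lactation difference minus the gestation difference, with 17 at an unadjusted p under 0.05 and a smallest adjusted p of 0.354.

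miR-195 was as far apart in gestation, with scaled signals from 0.00897 to 0.0505 on 3 sheep arrays and of 1.36 and 1.95 on 2 mouse arrays. let-7c ranged from 1.504 to 1.58 in gestating sheep and had 4.85 and 5.82 in gestating mouse. miR-451 ranged from 0.174 to 0.206 in gestating sheep and had 1.65 and 1.80 in gestating mouse. miR-331-3p ranged from 0.372 to 0.557 in gestating sheep and had 0.0698 and 0.0846 in gestating mouse. For all 4, which were taken from the called miRNAs, the sheep and mouse arrays did not overlap in either stage. In lactation the sheep value lay above both mouse days for 29.2% of all tested miRNAs and below both for 33.5%. The share without overlap in gestation was not counted. The spread of the gestation arrays entered the calls, so miRNAs with close values within gestation were favoured in this choice.

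Among the called miRNAs, miR-204, miR-181b and miR-210 had gaps over 2 between the stages, with values under the floor set to it. miR-204 ranged from 0.0907 to 0.151 in gestating sheep and had 0.0558 and 0.0747 in gestating mouse. Its species difference was 3.53 in lactation and 0.93 in gestation, a gap of 2.61 ± 0.44 (adjusted p = 0.354). miR-181b ranged from 0.0433 to 0.0595 in gestating sheep and had 0.0274 and 0.102 in gestating mouse. Its species difference was -3.79 in lactation and -0.09 in gestation, a gap of -3.70 ± 1.03 (adjusted p = 0.483). miR-210 had a difference of -3.42 in lactation and -1.29 in gestation, a gap of -2.13 ± 0.72 (adjusted p = 0.483).

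These gaps did not pass the test. Without mouse lactation day 2 there were 15 calls (4 higher, 11 lower), and without mouse lactation day 10 there were 4.

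**Figure D5:**
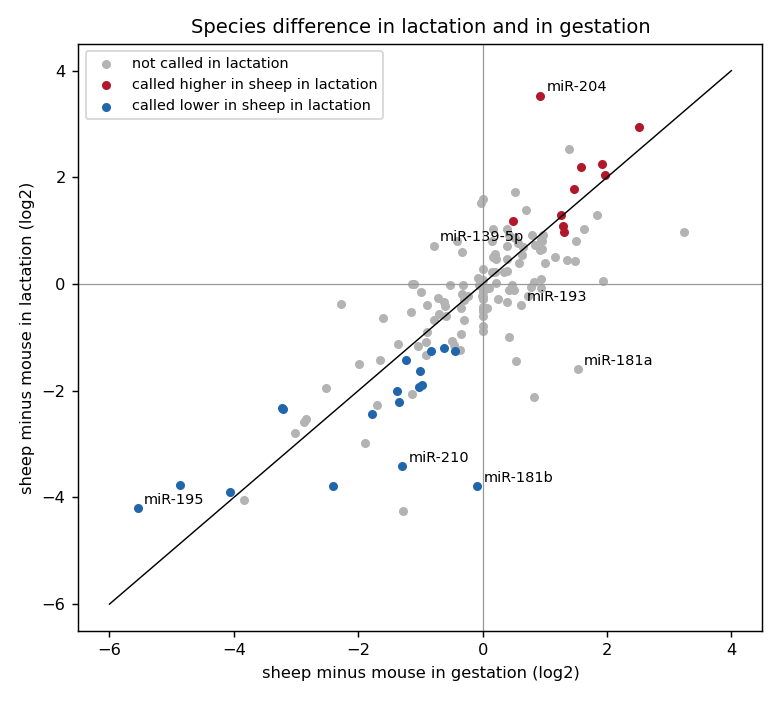
log2 difference of sheep minus mouse in lactation (y axis, 1 sheep and 2 mouse arrays) against the same difference in gestation (x axis, 3 sheep and 2 mouse arrays) for the 145 tested miRNAs above the floor on a lactation array; the diagonal marks equal differences. All 28 called miRNAs lie in the quadrants of equal sign, and miR-204 and miR-181b lie far from the diagonal, with values under the floor set to it.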

How the data were processed

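Labelled total RNA was hybridised to 1-colour Agilent miRNA arrays. The authors deposited scanner files whose processed signal is an intensity on a linear scale, background-subtracted and detrended but not normalized between arrays, per the file headers. The headers give Agilent Feature Extraction 10.5.1.1, and the submitters' processing notes 9.5. Detection and outlier flags of 0 or 1 were set by that software, per the file headers. The authors' deposited value table is also an intensity, equal to Agilent's total signal times 1 constant per array of unstated basis.

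Outlier spots were dropped, spots averaged per probe and probes per miRNA. Scaling divided an array by its own 75th percentile over the 94 miRNAs that all 10 arrays detected. The floor was the highest of the arrays' 5th percentiles of detected miRNAs. Tested miRNAs were detected on at least 3 arrays (213) and above the floor on at least 1 (185). limma 3.58.1 in R 4.3.3 fitted 6 means, with Benjamini-Hochberg adjustment and a threshold of 0.05. It was tested on simulated data. The precision is limited by the number of arrays. Virgin mouse and mouse gestation day 10 were hybridised on slide 2, everything else on slide 1.

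Named miRNAs were the 15 brightest on each array, the 10 largest 4-fold differences and the 10 smallest adjusted p in each direction, the 8 brightest detected in 1 species only, members of 22 lists, and their seed families. The members and lists were chosen with earlier results of these data known. Alternatives covered scaling, background, probes, floor, filter, slide and leaving out arrays. miRNA sequences were not used here.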

Additional observations from a re-analysis of the deposited data

Results flagged for a closer look

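For 3 miRNAs the 1 sheep array lay on one side of both mouse days in lactation, and all 3 sheep arrays lay on the opposite side in gestation. How many miRNAs would do so by accident with so few arrays was not worked out. miR-181a had a species difference of -1.60 in lactation and 1.53 in gestation, a gap of -3.13 (log2, limma adjusted p = 0.483). Its scaled signal was 0.127 in sheep, 0.625 at mouse day 10 and 0.237 at mouse day 2 of lactation. miR-139-5p had 0.72 in lactation and -0.79 in gestation, a gap of 1.51 (adjusted p = 0.354), and lay at the floor on 3 of the 10 arrays. miR-193 had -0.39 in lactation and 0.62 in gestation, a gap of -1.01 (adjusted p = 0.483). None of the 3 gaps passed the test.

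The array also carries probes for miRNAs of a mouse gammaherpesvirus, which no comparison used. The probe set mghv-miR-M1-2 was detected on all 10 arrays, with a total signal of 29.7 in lactating sheep, 31.0 at mouse day 10 and 33.4 at mouse day 2.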

How the results depend on the processing

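Of the 28 miRNAs called between sheep and mouse in lactation, 4 were also called without scaling, 6 with normexp and 1 in the authors' value table. With no filter 3 of them were also called, and on the 3 lactation arrays alone 8. The count of all calls (28) became 4 without scaling, 7 with normexp, 3 in the authors' value table and 5 with no filter. On the 3 lactation arrays alone it was 17. It ran from 12 to 36 when 1 array was left out. The gap between lactation and gestation (0 calls) gave 1 with the percentile over all miRNAs, 6 with quantile normalization, 1 with normexp, 1 with the brightest probe, 3 with no filter, 2 with miRNAs at the floor added, 2 with a slide term and 2 from slide 1 only. It ran from 0 to 15 when 1 array was left out. The 21 miRNAs with a 4-fold difference became 1 with normexp, 39 with a floor 4 times lower, 42 at 2-fold and 8 at 8-fold. The number of the 20 lists with a median above 0 was 5, and became 12 without scaling, 12 with the percentile over all miRNAs, 11 in the authors' value table and 9 with quantile normalization. A median of 0 counts on neither side. The miRNAs detected on all 3 lactation arrays fell to 76, against 106, under a stricter rule on spots well above background. The shared brightest were 22 to 23 of 30, 12 of 20 and 38 of 50. Spearman correlations ran from 0.719 to 0.757 between sheep and mouse day 10, from 0.747 to 0.778 between sheep and mouse day 2 and from 0.940 to 0.952 between the mouse days. miR-28 turned to -0.055 with normexp, and let-7i to 0.141 and miR-202-3p to 0.088 without scaling. No other called miRNA turned, and 18 of the 28 kept their call in at least 15 of up to 24 settings. miR-223 (8), miR-202-3p (9), miR-30c (10) and miR-125a-5p (10) kept it in the fewest. The cause of the other changes was not tested. No paired analysis was possible because no replicate number in the labels joins arrays. Signals near background limit 56 miRNAs detected in sheep, 7 at mouse day 10 and 20 at mouse day 2, all below the floor.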
